A study of Homo sapiens with 6 samples.

Results

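Frizzled receptors, their ligand WNT5B, β-catenin and its target genes were followed in RNA-seq data from a human hepatocellular carcinoma cell line with and without overexpression of transketolase (TKT), an enzyme of the pentose phosphate pathway. The 10 genes were picked by symbol as FZD3, FZD4, FZD5, FZD8, LRP6, WNT5B, CTNNB1, AXIN2, LGR5 and CTNNBIP1. They were picked with the difference between TKT-overexpressing and control cells already known, so that difference is described for them and not tested. Of the 10 genes, 9 were found among the 22077 gene symbols of the count table, and LRP6, a co-receptor, was not analysed here. All 9 passed the filter on low counts, as did 14162 genes in total.

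The study sequenced 3 cultures transfected with a TKT expression plasmid and then selected, whose genotype is given as over-expression, and 3 control cultures (VC), whose genotype is given as wt. All 6 cultures came from 1 line, labelled Hu7 and named Huh7 in the Results of the paper, although its Methods name HCCLM3. The plasmid carries GFP and a puromycin marker, and the sources used here do not state whether the selected cells were a pool or 1 clone. The paper does not say whether the controls received an empty plasmid and the same selection. If they did not, differences due to plasmid, GFP or selection cannot be told apart from those due to TKT. The labels number the cultures as replicate biosamples, and the Methods say in general terms that experiments were repeated independently. Neither says whether these cultures were transfected and selected separately, so p-values measure only the spread between these samples, which may be technical.

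Libraries held between 30148788 and 37096156 counts. TKT itself lay between 9392 and 9549 CPM (read counts per library, rescaled so that libraries of unequal depth can be compared) in the overexpressing cultures and between 469 and 515 CPM in the controls. Of 8 hepatocyte markers, 7 had at least 2831 counts in every library, ALB and AFP the highest, while APOB had at most 6. The summed level of the hepatocyte markers was 20210 to 20560 CPM with TKT and 19590 to 19970 CPM without. Of the 7 tested, 1 was at an adjusted p under 0.05 (14.3%, against 10.6% of all tested genes). This was FGB, with 820, 826 and 808 CPM with TKT and 569, 573 and 592 CPM without (log2 fold change 0.50, edgeR adjusted p = 8.85e-10). Fibroblast markers summed to at most 3.08 CPM, and the blood cell markers CD68 and CD3E had at most 2 counts. LYZ, also listed with the blood cells, lay between 116 and 122 CPM with TKT and between 144 and 157 CPM without. PECAM1, listed with the endothelial cells, had 472 to 717 counts, while VWF, from the same list, had at most 2. Of the bile duct markers, SOX9 had 5079 to 6094 counts and EPCAM 1015 to 1279, while KRT7 had at most 2 and KRT19 at most 6. In bulk RNA, fewer cells of a type and less RNA per cell cannot be told apart. The part of these markers in the results below was not tested.

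Wnt ligands are secreted, lipid-modified glycoproteins that bind a Frizzled receptor together with the co-receptor LRP5 or LRP6. In the canonical branch this binding stops a destruction complex, built on AXIN and APC, from marking β-catenin for degradation, and the stabilised β-catenin joins TCF/LEF factors on DNA and switches on genes such as AXIN2 and LGR5. In the liver, this branch patterns the hepatocytes around the central vein, and mutations that stabilise β-catenin are frequent in hepatocellular carcinoma.

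Promoter sequences are shown for 3 of the Frizzled genes, because FZD5 and FZD8 were the receptors at a higher level with TKT and FZD4 was a receptor whose groups overlapped. They are the 250 bases upstream of the RefSeq transcription start (GRCh38.p14), read 5′ to 3′ on the strand of the gene, which is the minus strand for all 3. Capitals mark 3 promoter words found on either strand, the GC box (GGGCGGG), the CCAAT box (CCAAT) and the TATA box (TATAAA).
FZD5, chr2:207769907-207770156: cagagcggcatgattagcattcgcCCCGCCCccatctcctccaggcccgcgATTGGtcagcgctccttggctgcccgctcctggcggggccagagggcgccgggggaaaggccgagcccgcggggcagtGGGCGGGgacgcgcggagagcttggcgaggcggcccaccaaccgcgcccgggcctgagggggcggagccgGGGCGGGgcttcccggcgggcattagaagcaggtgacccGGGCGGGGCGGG
FZD8, chr10:35642297-35642546: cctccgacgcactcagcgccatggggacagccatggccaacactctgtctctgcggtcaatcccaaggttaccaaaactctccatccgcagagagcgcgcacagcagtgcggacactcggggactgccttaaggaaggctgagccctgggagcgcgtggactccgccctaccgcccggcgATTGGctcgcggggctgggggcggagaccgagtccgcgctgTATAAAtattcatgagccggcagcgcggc
FZD4, chr11:86955396-86955645: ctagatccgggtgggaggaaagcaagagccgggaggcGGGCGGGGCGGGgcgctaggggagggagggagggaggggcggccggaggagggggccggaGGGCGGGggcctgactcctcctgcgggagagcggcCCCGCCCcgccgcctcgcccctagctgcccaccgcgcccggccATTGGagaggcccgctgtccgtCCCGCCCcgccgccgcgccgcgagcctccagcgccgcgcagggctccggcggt

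The promoters of FZD5 and FZD4 each held 5 GC boxes and 1 CCAAT box, and some of the GC boxes overlapped each other. That of FZD8 held no GC box, 1 CCAAT box and 1 TATA box, which lay 29 to 24 bases upstream of the start. Their GC content was 76.8% for FZD5, 80.8% for FZD4 and 65.2% for FZD8, against a median of 58.0% over 35116 RefSeq promoters. Of those promoters, 31.5% held a GC box, 32.0% a CCAAT box and 10.7% a TATA box in the same window. The table held 7 promoters for 6 of the 10 genes. None of the 7 held a TCF/LEF word (CTTTGAA or CTTTGAT), the E-box CACGTG bound by MYC, or the AP-1 word TGANTCA, each searched on both strands and found in 5.94%, 6.34% and 6.57% of all promoters. This says only that these letters are not in these windows.

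The genes spanned a wide range of levels. On the FPKM scale (fragment counts scaled to gene length and library depth), which allows levels of different genes to be set side by side, CTNNB1 was the highest in control cells at 39.3 ± 0.731 FPKM (SD, n = 3). FZD5 followed at 23.2 ± 1.31 and CTNNBIP1 at 12.5 ± 0.929 FPKM. FZD4 at 4.08 ± 0.380, LGR5 at 2.68 ± 0.327 and FZD3 at 1.56 ± 0.0960 FPKM formed the middle of the range. AXIN2 at 0.872 ± 0.0950, FZD8 at 0.645 ± 0.119 and WNT5B at 0.0834 ± 0.0209 FPKM were the lowest. The ranges of neighbours in this order did not overlap in the control libraries. With TKT the order was kept except that FZD8, at 1.08 ± 0.183 FPKM, stood above AXIN2, at 0.867 ± 0.0536, and its range overlapped that of FZD3. The length implied by the deposited FPKM was within 1.5% of the merged exons of GENCODE 29 for 8 of the 9 genes, and for FZD5 it was 7064 bases against 6708.

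The plot of CPM by library shows all 9 genes. In 7 of them the groups did not overlap, FZD5, FZD8 and WNT5B being higher and FZD3, CTNNB1, LGR5 and CTNNBIP1 lower with TKT. Among all tested genes, 28.0% had groups that did not overlap. In edgeR's quasi-likelihood test 5 of the 9 were at an adjusted p under 0.05, against 10.6% of all tested genes. FZD5 and FZD8 were the 2 at a higher level, against 5.69% of all tested genes, and FZD3, LGR5 and CTNNBIP1 the 3 at a lower level, against 4.94%. None of the 9 also had an absolute log2 fold change over 1, the fold threshold of the study, and none did so in DESeq2 or limma. In edgeR 0.727% of all tested genes passed both criteria, 0.699% higher and 0.0282% lower. At an unadjusted p under 0.05 there were 6 of the 9 in edgeR, against 23.8% of all tested genes. As the genes were picked on this difference, nothing is read from these counts.

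**Figure D1:**
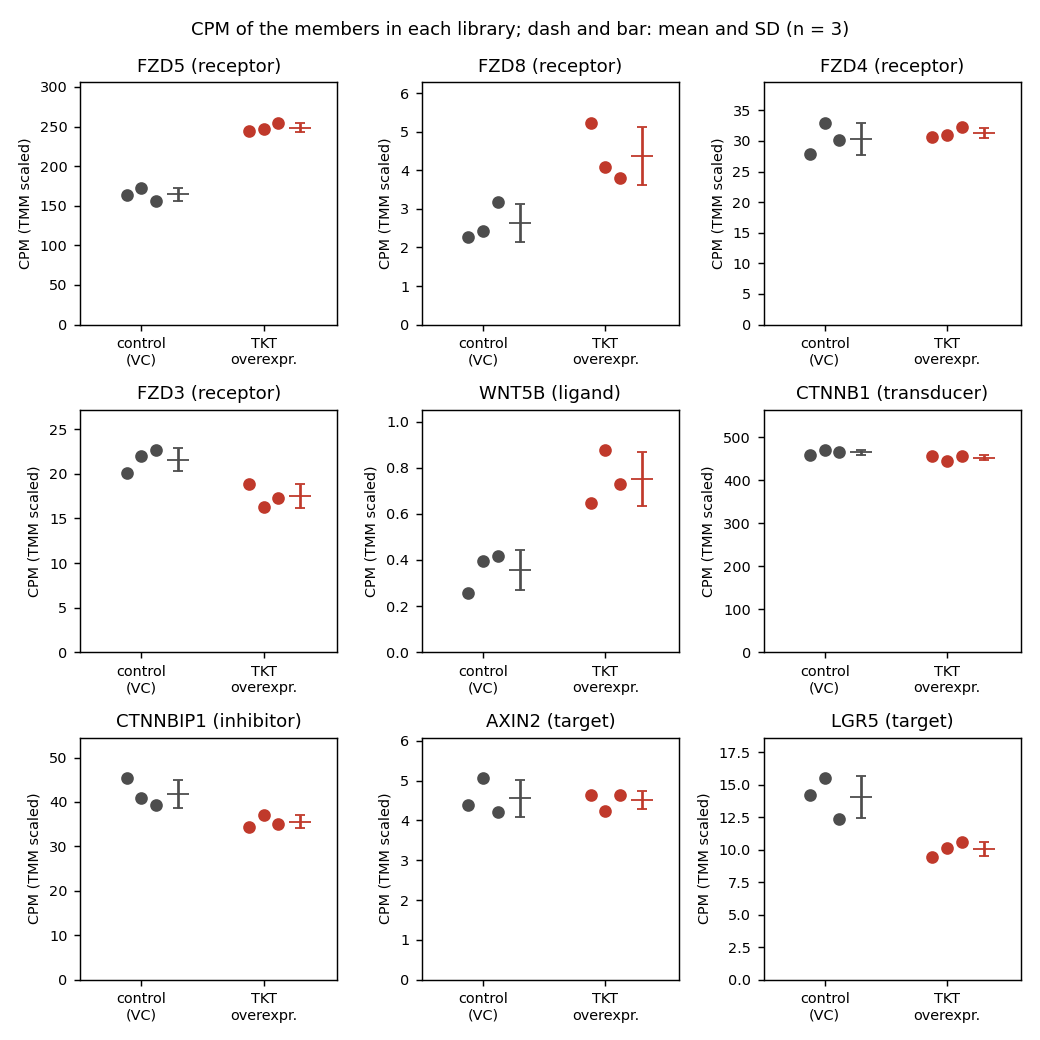
CPM (vertical axis, from 0, scaled with TMM factors) of each gene in the 3 control (VC, grey) and 3 TKT-overexpressing (red) libraries, with the mean and SD of each group (n = 3) as a dash and bar. FZD5, at 157 to 172 CPM in control and 245 to 255 CPM in TKT-overexpressing libraries, separates most clearly, while the points of FZD4 and AXIN2 overlap.

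FZD5, whose gene spans bases 207762586 to 207769563 of chromosome 2 (minus strand, GRCh38), encodes a Frizzled receptor used by canonical and other Wnt signals. It had 9064, 7603 and 8380 counts with TKT and 5148, 5236 and 5253 without. After scaling these were 245, 246 and 255 CPM against 164, 172 and 157 CPM. Every overexpressing culture lay well above every control culture, and the gap between the groups was wider than the range within either. The log2 fold change was 0.60 (standard error 0.04), a 1.51-fold higher level with a 95% interval of 1.43 to 1.61. It lay between 0.56 and 0.64 with each library left out in turn, and the adjusted p was under 0.05 in all 14 alternatives.

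FZD8 (chromosome 10, 35638249 to 35642278, minus strand) is a receptor gene with 1 exon. It had 194, 126 and 125 counts with TKT and 71, 74 and 107 without, that is 5.24, 4.08 and 3.80 CPM against 2.26, 2.44 and 3.19 CPM. TKT overexpression replicate 1 was the highest library and control replicate 3 the highest of the controls, and the gap between the groups was narrower than the range within either. On the log2 scale the difference was 0.73 (standard error 0.21), a 1.66-fold higher level with a 95% interval from 1.24 to 2.24. The adjusted p was under 0.05 in the fit of all 6 libraries but not without TKT overexpression replicate 1, where the log2 fold change was 0.58, nor without control replicate 1 or 2, where it was 0.64 and 0.68, nor with limma on FPKM or the replicate number as a block. The counts per library are low enough that sampling alone gives a coefficient of variation of 8.21% and 10.9% in the 2 groups, against 17.4% and 18.8% observed.

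FZD4 (chromosome 11, 86945679 to 86955391, minus strand) encodes a receptor that also binds norrin. It had 30.7, 31.0 and 32.3 CPM with TKT and 27.8, 33.0 and 30.1 CPM without. The values with TKT fell inside the control range, and the log2 fold change was 0.05 with a 95% interval from -0.1 to 0.20. FZD4 shares 1255 exonic bases with PRSS23 on the opposite strand, a protease gene that rose with TKT (log2 fold change 0.74, standard error 0.07, edgeR adjusted p = 9.87e-08). Whether the counting used strand is not given in the sources used here, so reads of FZD4 and PRSS23 may not be told apart, and the part of PRSS23 in the value of FZD4 was not tested.

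FZD3 (chromosome 8, 28494205 to 28574268, plus strand) encodes a receptor best known for planar cell polarity and axon guidance. It had 18.9, 16.3 and 17.3 CPM with TKT and 20.1, 22.0 and 22.7 CPM without. All 3 overexpressing cultures were below all 3 controls, with TKT overexpression replicate 1 and control replicate 1 close to each other. This is a log2 fold change of -0.3 (standard error 0.09), a level 0.811 times that of the controls with a 95% interval from 0.712 to 0.924. The adjusted p was not under 0.05 without control replicate 2 or 3, or without TKT overexpression replicate 2 or 3, where the log2 fold change lay between -0.29 and -0.25, or with limma on FPKM or the replicate number as a block.

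The 5 other Frizzled genes in the table, which were not picked, give the receptors a setting. None of FZD1, FZD2, FZD6, FZD7 and FZD9 passed the test, with log2 fold changes between -0.24 for FZD1 and 0.17 for FZD6 and edgeR adjusted p-values between 0.149 and 0.745. FZD7, the second most abundant Frizzled gene on the FPKM scale although not in CPM, had 25.9, 26.6 and 27.0 CPM with TKT and 23.5, 25.4 and 22.5 CPM without (adjusted p = 0.227 in edgeR). Summed over the 9 Frizzled genes, the level was 53.9, 54.0 and 55.9 FPKM with TKT and 41.5, 44.2 and 41.4 FPKM without. FZD5 made up 64.2%, 63.9% and 65.5% of this sum with TKT and 55.6%, 55.7% and 53.1% without. Without FZD5 the sum was 19.3, 19.5 and 19.3 FPKM against 18.4, 19.6 and 19.4 FPKM, and the groups overlapped. The groups were thus separate in the Frizzled total only with FZD5 included, which was picked for its difference. FZD8, although it had the larger fold difference, made up at most 2.39% of the sum in any library.

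**Figure D2:**
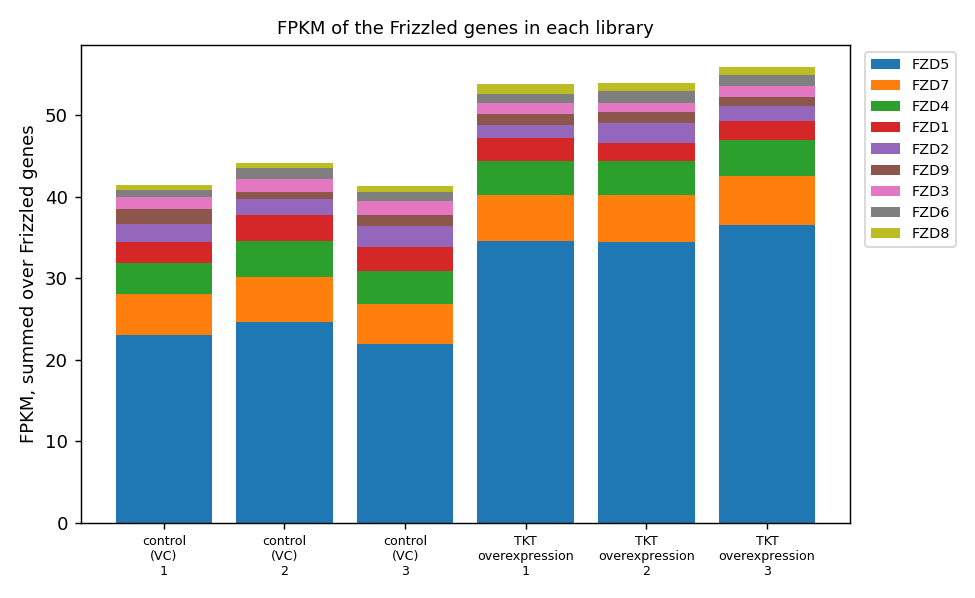
FPKM of the 9 Frizzled genes (vertical axis, stacked from 0) in each of the 3 control (VC) and 3 TKT-overexpressing libraries. The bar of FZD5 grows from 22.0 to 24.6 FPKM in control libraries to 34.5 to 36.6 FPKM with TKT, while the other 8 together stay between 18.4 and 19.6 FPKM.

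Among the remaining receptors, LRP5, the co-receptor that acts beside Frizzled, was the most abundant at 59.4 ± 1.25 FPKM in control cells. It was not among the 10 picked genes, although its list was also chosen with earlier results known. LRP5 fell slightly, from 380, 361 and 367 CPM to 342, 336 and 336 CPM (log2 fold change -0.13, standard error 0.04, edgeR adjusted p = 0.0235). Its adjusted p was under 0.05 in 7 of 14 alternatives, over a range of 0.00337 to 0.141, and it was 0.05 or more without control replicate 1, without any 1 of the TKT overexpression replicates, with limma on FPKM, and when the replicate number was a block. RYK and ROR1, receptors of other Wnt signals, did not pass the test (log2 fold changes 0.02 and -0.22, edgeR adjusted p = 0.852 and 0.204).

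WNT5B (chromosome 12, 1529891 to 1647243, plus strand) encodes a ligand known mainly for signals that do not pass through β-catenin. It had 24, 27 and 24 counts with TKT and 8, 12 and 14 without, or 0.648, 0.875 and 0.730 CPM against 0.255, 0.395 and 0.417 CPM. The groups did not overlap, but the counts were the lowest of the 9 genes. They differed by 1.06 on the log2 scale (standard error 0.48, 95% interval 0.08 to 2.05), and the adjusted p was under 0.05 in no fit. On log2(FPKM + 1) the difference was 0.12, and the FPKM of the gene lay below 0.204 in every library, well under the pseudocount of 1. Of 18 other Wnt ligands, 12 had a row, 3 passed the filter and none passed the test. WNT10B, the most abundant ligand at 0.569 ± 0.126 FPKM in control cells, was at 0.40 on the log2 fold scale and did not pass (edgeR adjusted p = 0.406).

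CTNNB1 (chromosome 3, 41194741 to 41260096, plus strand) encodes β-catenin. It had 457, 445 and 456 CPM with TKT and 460, 470 and 465 CPM without. The groups did not overlap by a narrow margin, and the log2 fold change was -0.04 with a 95% interval from -0.11 to 0.03, or 0.928 to 1.02 times the control level. The messenger RNA does not report on the stability of the protein, the step that Wnt signals act on.

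CTNNBIP1 (chromosome 1, 9848276 to 9910336, minus strand) encodes a small protein that binds β-catenin and blocks its contact with TCF factors. It had 34.3, 37.2 and 35.1 CPM with TKT and 45.4, 40.9 and 39.3 CPM without. Each overexpressing culture was below each control, and control replicate 1 was the highest. Its log2 fold change of -0.24 (standard error 0.06) is a level 0.848 times that of the controls. The adjusted p was not under 0.05 without control replicate 1, TKT overexpression replicate 1 or TKT overexpression replicate 3, where the log2 fold change lay between -0.23 and -0.18, nor with limma on FPKM or the replicate number as a block. The level of CTNNB1 was 3.78, 3.40 and 3.69 times that of CTNNBIP1 on the FPKM scale with TKT and 2.87, 3.26 and 3.36 times without.

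AXIN2 (chromosome 17, 65528563 to 65561647, minus strand) encodes a scaffold of the destruction complex and is a feedback target of β-catenin in many tissues. It had 172, 131 and 153 counts with TKT and 138, 154 and 141 without, or 4.64, 4.25 and 4.65 CPM against 4.39, 5.07 and 4.20 CPM. The groups overlapped throughout. The log2 fold change was -0.01 with a 95% interval from -0.36 to 0.34, so levels from 0.779 to 1.26 times that of the controls lay inside the interval. AXIN2 shares 931 exonic bases with AC004805.1, a protein-coding gene on the same strand. The part of this overlap in the value of AXIN2 was not tested. Shorter exonic overlaps were 169 bases for CTNNBIP1 and 124 bases for LGR5, each with an antisense gene, and 81 bases for FZD8 with MIR4683. Their part in the values was not tested either.

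LGR5 (chromosome 12, 71439770 to 71586310, plus strand) encodes an R-spondin receptor and marks cells with active Wnt signals, among them hepatocytes near the central vein. It had 351, 314 and 348 counts with TKT and 448, 472 and 414 without, or 9.47, 10.2 and 10.6 CPM against 14.3, 15.5 and 12.3 CPM. All overexpressing cultures were below all controls. With a log2 fold change of -0.48 (standard error 0.11), LGR5 stood at a level 0.718 times that of the controls with a 95% interval from 0.610 to 0.844. Without TKT overexpression replicate 1 it was -0.44 and the adjusted p was not under 0.05. LGR5 stood at 2.03, 2.39 and 2.26 times the level of AXIN2 on the FPKM scale with TKT and at 3.23, 3.05 and 2.92 times without, so the targets did not keep a fixed ratio.

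Set against each other, the receptors FZD3, FZD4, FZD5 and FZD8 gave 0.32 as the median of their log2 fold changes and the targets AXIN2 and LGR5 gave -0.25, a difference of 0.57. The median over all tested genes was 0.00. Within the receptors the values ran from -0.3 for FZD3 to 0.73 for FZD8, so the receptors did not move as 1 group, and FZD3 lay below AXIN2 but above LGR5. With each library left out in turn the difference lay between 0.54 and 0.62, and on log2(FPKM + 1) it was 0.35. No test was made of this difference, since both sides were picked on the same comparison. It was not seen in the wider lists by role described below. There the median was -0.05 for all 12 tested receptors and -0.08 for all 19 tested targets. Without the picked genes it was -0.15 for 8 receptors and -0.08 for 17 targets.

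The wider Wnt pathway was read from lists of genes by role, which held 93 further genes. Of these, 73 had a row and 59 were tested. In edgeR 7 of the 59 passed an adjusted p of 0.05, 3 higher and 4 lower, which is 11.9% against 10.6% of all tested genes and therefore close to the background. None passed the threshold with a log2 fold change over 1, and neither DESeq2 nor limma gave any. In edgeR 18 of the 59 (30.5%) had an unadjusted p under 0.05, against 23.8% of all tested genes. The median log2 fold change of the 59 was -0.03.

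**Figure D3:**
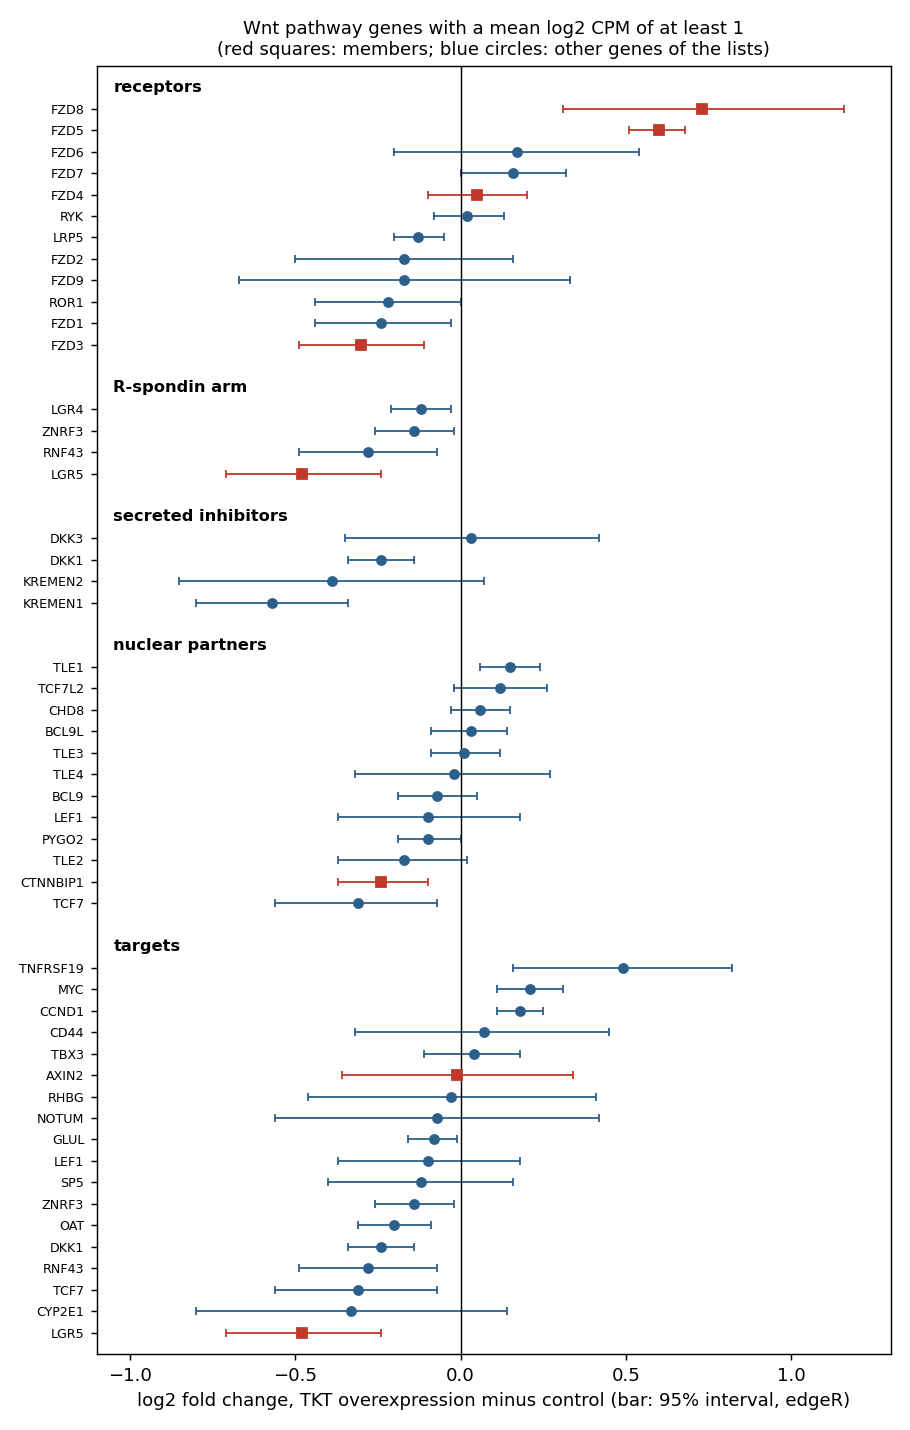
Log2 fold change (TKT overexpression minus control) with its 95% interval from edgeR, with the picked genes as red squares and other genes as blue circles. Drawn are Wnt pathway genes whose log2 CPM averaged 1 or more, ordered by role and then by value. The roles drawn are receptors, R-spondin arm, secreted inhibitors, nuclear partners and targets, so CTNNB1 is not shown. FZD8 and FZD5 stand at 0.73 and 0.60 above all other receptors, all 4 genes of the R-spondin arm lie below 0, and the targets lie on both sides of 0. LGR5, RNF43, ZNRF3, DKK1, TCF7 and LEF1 appear in 2 roles.

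Among secreted inhibitors and their receptors, 2 of 6 tested genes fell and none rose, where 4.94% of all tested genes fell and 10.6% passed in either direction. With 6 genes the difference was not tested. DKK1, which binds LRP5 and LRP6 and keeps them from Wnt, had 153, 151 and 148 CPM with TKT and 169, 172 and 192 CPM without. Its log2 fold change was -0.24 (standard error 0.05, edgeR adjusted p = 0.00174), and control replicate 3 was the highest library. KREMEN1, the DKK1 receptor that removes LRP6 from the surface, had 9.55, 9.63 and 8.45 CPM with TKT and 13.6, 14.6 and 12.7 CPM without (log2 fold change -0.57, standard error 0.11, edgeR adjusted p = 0.00175). Both were at an adjusted p under 0.05 in all 14 alternatives, with values up to 0.0272 for DKK1 and 0.0254 for KREMEN1.

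In the R-spondin arm, which controls how long Frizzled receptors stay on the surface, the 3 genes other than LGR5 had log2 fold changes below 0 and none passed the test. Over all tested genes, 7050 of 14162 lay below 0. RNF43 and ZNRF3, the ubiquitin ligases that remove Frizzled receptors, had -0.28 and -0.14 (edgeR adjusted p = 0.0888 and 0.124). LGR4, the most abundant R-spondin receptor at 29.7 ± 1.76 FPKM in control cells, had -0.12 (edgeR adjusted p = 0.0853).

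Of the destruction complex, none of 10 tested genes passed the test, and their log2 fold changes ran from -0.11 for AXIN1 to 0.22 for APC. FBXW11, the most abundant of them at 17.6 ± 0.506 FPKM in control cells, had 0.07. The 3 DVL genes, which carry the signal from Frizzled receptors into the cell, ran from -0.1 to -0.02 and did not pass. Among the other nuclear partners of β-catenin, 1 of 12 passed (8.33%, against 10.6% of all tested genes). TLE1, a co-repressor that binds TCF factors, rose from 133, 132 and 128 CPM to 146, 148 and 141 CPM (log2 fold change 0.15, standard error 0.04, edgeR adjusted p = 0.0306). Its adjusted p ranged from 0.0121 to 0.121 over the alternatives and was not under 0.05 without control replicate 1 or 3 or without TKT overexpression replicate 1 or 2, or with the replicate number as a block. PYGO2, the most abundant partner at 36.8 ± 0.733 FPKM in control cells, had -0.1 (edgeR adjusted p = 0.197). PORCN and WLS, which prepare and carry Wnt ligands for release, and NOTUM, which inactivates them, had log2 fold changes between -0.07 and 0.32 and did not pass.

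Beyond AXIN2 and LGR5, the target lists held 17 tested genes, of which 2 rose, 2 fell and 13 did not pass. The 4 that passed are 23.5% of them, against 10.6% of all tested genes, and this difference was not tested. Their median log2 fold change was -0.08. CCND1, which encodes cyclin D1, rose from 365, 377 and 367 CPM to 423, 416 and 415 CPM (log2 fold change 0.18, standard error 0.03, edgeR adjusted p = 0.00159). MYC rose from 110, 99.9 and 108 CPM to 123, 123 and 122 CPM (log2 fold change 0.21, standard error 0.05, edgeR adjusted p = 0.00530). Both kept an adjusted p under 0.05 in all 14 alternatives, with values up to 0.0322 and 0.0427, and both are also known to respond to growth factor signals. In edgeR the MYC level with TKT was 1.16 times that of the control cultures. By qRT-PCR, the paper reports no regulation of the MYC messenger RNA by TKT. Why the counts and the qRT-PCR differ was not tested. DKK1, itself a β-catenin target, fell as given above.

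Of the 5 tested liver targets, 1 fell and 4 did not pass, and 4 of the 5 log2 fold changes lay below 0. OAT, the ornithine aminotransferase of hepatocytes near the central vein, fell from 55.7, 58.8 and 56.4 CPM to 47.7, 50.1 and 50.8 CPM (log2 fold change -0.2, standard error 0.05, edgeR adjusted p = 0.0180). Its adjusted p ranged from 0.0155 to 0.130 over the alternatives and was not under 0.05 without TKT overexpression replicate 1, with limma on FPKM or with the replicate number as a block. GLUL, glutamine synthetase and the most abundant liver target at 26.2 ± 0.358 FPKM in control cells, had -0.08 (edgeR adjusted p = 0.165), and CYP2E1, RHBG and TBX3 had -0.33, -0.03 and 0.04 without passing. TNFRSF19 had the largest log2 fold change among the targets, 0.49 (standard error 0.16), and did not pass (edgeR adjusted p = 0.0522). RNF43, ZNRF3, TCF7, LEF1, SP5, NOTUM, CD44 and NKD2 did not pass either, with log2 fold changes from -0.31 for TCF7 to 0.20 for NKD2.

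The profile of each gene over the 6 libraries was also compared with those of 11285 tested genes, or 11286 for WNT5B. The most similar gene was ALDH1A1 for FZD5 (Pearson r = 0.9974), ZBTB6 for FZD4 (0.9915), GLCE for FZD3 (0.9958), CXCL3 for WNT5B (0.9941), CYP2S1 for CTNNB1 (0.991), HECTD3 for CTNNBIP1 (0.9995), FHIP2A for AXIN2 (0.9795) and CENPI for LGR5 (0.9948). These values describe 6 libraries that share 2 conditions, and with so many genes compared high values occur for every gene, including AXIN2, whose groups overlapped.

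**Figure D4:**
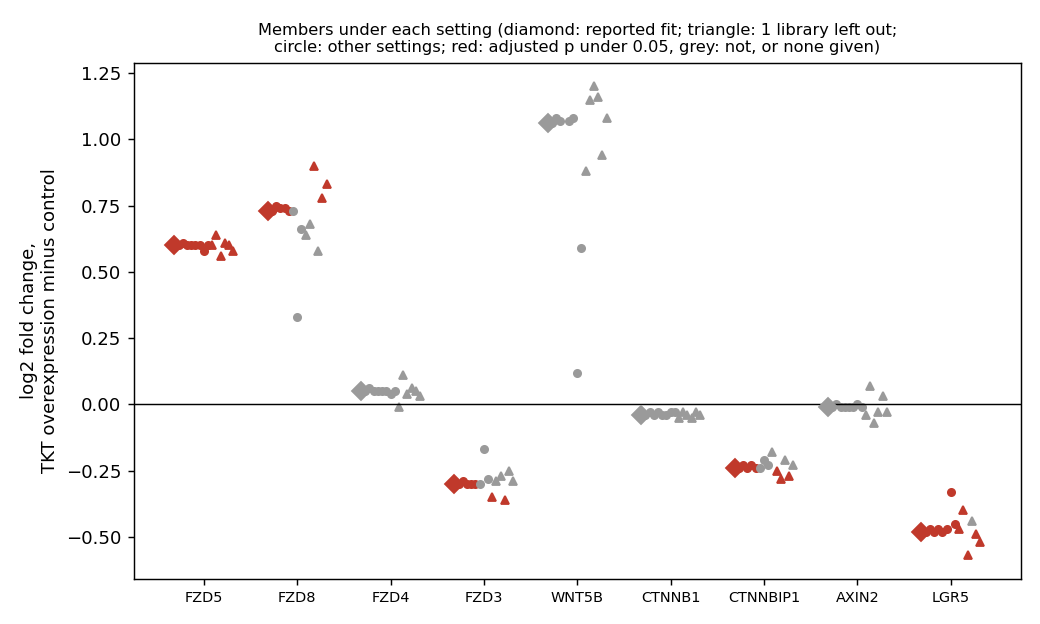
Log2 fold change (vertical axis, TKT overexpression minus control) of each gene in the reported fit (diamonds), with 1 library left out (triangles) and under the other settings (circles), red where the adjusted p was under 0.05 and grey where it was not or none was given. FZD5 is red in every setting, LGR5 in all but 1, and FZD8, FZD3 and CTNNBIP1 are red in some and grey in others.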

How the data were processed

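RNA from 3 TKT-overexpressing and 3 control cultures was sequenced. The submitters' processing notes name fastp 0.22.0, HISAT2 2.1.0, featureCounts and hg38. The authors deposited counts per gene symbol without normalization and FPKM values. The annotation and the strand and multi-mapping options are not given in the sources used here. Columns named TKT were matched to the over-expression samples by number.

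The test was edgeR 4.0.16 under R 4.3.3 (filterByExpr with a minimum count of 10, TMM, robust quasi-likelihood test, Benjamini-Hochberg over 14162 genes, common coefficient of variation 0.113). FPKM served for levels between genes. The alternatives were DESeq2 1.42.0, other scalings and filters, the replicate number as a block, limma 3.58.1 on log2(FPKM + 1) and log2(FPKM + 0.1), and each library left out. No 2 libraries were copies of each other, as the chi-square per degree of freedom was 7.27 to 10.0 within a condition. Scripts were tested on simulated counts.

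The genes and lists were chosen with earlier results of these data known. Genes named are the 9 analysed, those of the lists at an adjusted p under 0.05, the targets, the most abundant gene of each list and the gene most similar to each, except that for FZD8 it is not reported here. FZD1, FZD2, FZD6, FZD7, FZD9, RYK, ROR1, PRSS23 and the genes at the ends of a range were added after values were seen. The count of other Wnt pathway genes with an absolute log2 fold change over 1 under each alternative was also chosen after seeing the data. Positions are from GENCODE 29 and promoters from RefSeq.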

Additional observations from a re-analysis of the deposited data

How the results depend on the processing

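FZD5 kept its direction and an adjusted p under 0.05 in all 14 alternatives, LGR5 in 13, FZD8 and CTNNBIP1 in 8 and FZD3 in 7, and no direction of these 5 turned. The alternatives refit the same libraries whose difference was known when these genes were picked. How often a gene passed is therefore a description of the processing and no test of that gene. FZD4 and AXIN2, whose groups overlapped, had log2 fold changes from -0.01 to 0.11 and from -0.07 to 0.07 over the alternatives. The number of the 9 genes at an adjusted p under 0.05 was 5 in the reported fit, 5 with other scalings, other filters and DESeq2, 2 with the replicate number as a block, 2 with limma on either FPKM scale, and 2 to 4 with 1 library left out (lowest without TKT overexpression replicate 1). The other Wnt pathway genes at an adjusted p under 0.05 were 7 in the reported fit, with the replicate block 4, and 4 to 7 with 1 library left out. They were 8 with upper-quartile scaling or with 10 counts required in every library, and 5 with limma on either FPKM scale. Receptors minus targets was 0.57 and, on log2(FPKM + 1), 0.35. Over all tested genes, 1505 were at an adjusted p under 0.05, against 697 with the replicate block, 827 and 826 with limma on log2(FPKM + 1) and log2(FPKM + 0.1), and 791 to 1586 with 1 library left out. With an absolute log2 fold change over 1 as well, 103 were called, against 160 without a filter on low counts, 53 in DESeq2, 67 with the block, 13 and 66 with limma, and 74 to 128 with 1 library left out. Same-numbered libraries did not deviate together (correlations -0.0105, -0.0858 and 0.0131), so the numbers were not taken as pairs. WNT5B had no value when 10 counts were required in every library and no adjusted p in DESeq2. The causes of these changes were not tested.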
